A study of Mus musculus with 10 samples.

Results

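The nuclear lamins and 5 proteins anchored in the inner nuclear membrane are described here across the development of the mouse neocortex. The set was chosen by gene name, as Lmna, Lmnb1, Lmnb2, Lbr, Tmpo, Emd, Sun1 and Sun2, with earlier results of these data known. Of these 8 genes, 8 were found among the 6147 genes of the deposited table. Polyadenylated RNA came from whole neocortex, the layered outer part of the forebrain, of CD1 wild type mice, an outbred laboratory strain, and the labels name no transgene or treatment. The tissue was taken on 4 embryonic days, named E12.5, E14, E15.5 and E17 after the day of gestation, and on the day of birth (P0), with 2 libraries per stage and 10 in all. The design text calls the duplicates biological, and the sources used here do not say whether a library came from 1 animal or a pool, from which litter or from which sex. P-values therefore measure the spread between these libraries.

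Lamins are intermediate filament proteins that form a meshwork under the inner nuclear membrane. B-type lamins (Lmnb1, Lmnb2) stay attached to the membrane through a lipid anchor, while Lmna gives the A-type lamins A and C by alternative splicing. Lbr, the lamin B receptor, holds heterochromatin at the nuclear edge and is also a sterol reductase, Tmpo encodes the LAP2 proteins and Emd encodes emerin, both of which bind lamins and chromatin. Sun1 and Sun2 pair with nesprins in the LINC complex, which couples the nucleus to the cytoskeleton. In the developing cortex both B-type lamins and the LINC complex are known to be needed for moving nuclei in progenitors and migrating neurons. Of the A-type lamins, lamin A is known to be scarce in the brain.

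Values are TPM, each gene's share of transcripts per length on a total of 1000000 per library. Comparing levels between genes rests on the gene lengths used, which the sources used here do not give. Between 68.9% and 71.7% of that total fell on the listed genes, and 5990 to 6036 of them reached 1 TPM in each library. TPM are not read counts and the depth is unknown. Replicates of E17 stood apart from each other, with a standard deviation (SD) of 0.285 for their difference on the log2 scale across genes, against 0.088 to 0.176 at the other stages. E17 replicate 1 was also shifted upward, with a median log2 difference over genes of 0.157 relative to E17 replicate 2. The same median, replicate 1 minus replicate 2, was -0.031 (E12.5), 0.0058 (E14), 0.0126 (E15.5) and -0.0372 (P0). Each gene of the set was higher in E17 replicate 1 than in E17 replicate 2. The part of this shift in their E17 values was not tested. Markers of tissue around the cortex moved with stage. The choroid plexus markers in the table (2 of 6, Ttr and Clic6) summed to 303 to 452 TPM at E12.5, 1405 to 1517 TPM at E14 and 3.07 to 5.26 TPM from E15.5 on. Over the same stages the 6 meningeal and fibroblast markers went from 196 to 198 TPM, to 119 to 123 TPM and to 7.04 to 17.9 TPM, and the 3 erythroid markers present (of 7, with Hbb-bh1 at 0 in both P0 libraries) from 4323 to 4494 TPM, to 1880 to 1975 TPM and to 2.04 to 9.84 TPM. The 5 neuronal markers present summed to 1360 to 1427 TPM in E12.5 and 6880 to 7025 TPM in P0 libraries. The 6 radial glia markers of 8 went different ways over the same period. Fabp7 had 757 and 704 TPM at E12.5 against 1392 and 1420.3 at P0 and Slc1a3 had 54.9 and 57.8 against 67.7 and 64.2, whereas Vim had 624 and 687 against 95.9 and 92.7, and Nes, Pax6 and Sox2 were also lower in both P0 libraries. In whole tissue, fewer cells of a type and less RNA per cell cannot be told apart.

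Promoter sequences were taken from the RefSeq table for GRCm38.p6, and 11 windows of 7 of the 8 genes were examined, each of 300 bases, from 250 bases before to 50 after an annotated start. Windows of Lbr and Tmpo are shown because these genes fell most, and that of Lmna because it was the member that rose. Capitals mark matches on either strand to 4 sets of motifs: E2F (TTTCCCGC or TTTGGCGC), the cell cycle homology region CHR (TTTGAA or TTCGAA), the NF-Y box (CCAAT) and the SP box (GGGCGG). Where 2 matches overlap, as NF-Y and SP boxes can, the capitals run together. A match is a run of letters and not a measured binding site.
Lbr, chr1:181842352-181842651, reverse strand: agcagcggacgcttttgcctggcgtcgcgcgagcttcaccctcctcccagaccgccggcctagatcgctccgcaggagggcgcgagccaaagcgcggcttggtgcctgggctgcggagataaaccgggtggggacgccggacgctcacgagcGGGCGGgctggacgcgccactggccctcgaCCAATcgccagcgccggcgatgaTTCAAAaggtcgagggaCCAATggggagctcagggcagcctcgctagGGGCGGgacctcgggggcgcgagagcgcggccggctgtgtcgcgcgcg
Tmpo, chr10:91171570-91171869, reverse strand: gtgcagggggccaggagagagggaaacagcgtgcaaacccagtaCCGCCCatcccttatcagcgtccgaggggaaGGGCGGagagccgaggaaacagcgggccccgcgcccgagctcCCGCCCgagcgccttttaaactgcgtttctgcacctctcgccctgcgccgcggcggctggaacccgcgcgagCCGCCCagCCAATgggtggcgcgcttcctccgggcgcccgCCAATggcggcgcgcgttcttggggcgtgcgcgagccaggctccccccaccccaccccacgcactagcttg
Tmpo, chr10:91170501-91170800, reverse strand: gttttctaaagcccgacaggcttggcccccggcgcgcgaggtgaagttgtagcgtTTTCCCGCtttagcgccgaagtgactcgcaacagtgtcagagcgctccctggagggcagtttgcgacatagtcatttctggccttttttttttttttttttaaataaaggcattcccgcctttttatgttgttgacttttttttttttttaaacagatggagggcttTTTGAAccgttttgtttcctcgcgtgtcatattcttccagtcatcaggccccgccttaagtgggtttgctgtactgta
Lmna, chr3:88503303-88503602, reverse strand: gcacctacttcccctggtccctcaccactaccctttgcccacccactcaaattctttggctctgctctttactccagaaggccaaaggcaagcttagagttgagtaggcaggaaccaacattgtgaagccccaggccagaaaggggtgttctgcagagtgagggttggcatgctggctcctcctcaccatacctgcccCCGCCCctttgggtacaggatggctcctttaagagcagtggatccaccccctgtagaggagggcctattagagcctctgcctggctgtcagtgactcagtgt

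In these windows Lbr had 1 CHR, 2 NF-Y and 2 SP matches. The first Tmpo window had 2 NF-Y and 4 SP matches, and the second, at another annotated start of the gene, had 1 E2F and 1 CHR match. The Lmna window shown, 1 of 2 of that gene, had 1 SP match and no match to the other motifs. Its GC content was 56.3%, against 72.0% for Lbr and 71.7% and 46.3% for the Tmpo windows. The other Lmna window had 1 NF-Y match (GC content 54.7%). Of the falling members not shown, Lmnb2 had 1 SP match in 1 window (55.3%) and no match in its other (58.7%). Emd had 1 NF-Y and 1 SP match (53.7%), and Sun2 had 1 CHR, 2 NF-Y and 5 SP matches (71.3%). Sun1 had 2 NF-Y and 4 SP matches (71.3%) in 1 window and 1 NF-Y match (45.3%) in its other. Of all 32851 windows of this length in the table, 1.6% held an E2F match, 19.2% a CHR match, 37.4% an NF-Y match and 35.7% an SP match. No E2F match was found in the other windows of the 7 genes, which says only that these letters are not in those windows.

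Lamin A and lamin C cannot be separated in these gene-level values. As background, the brain microRNA miR-9 is known to repress the lamin A transcript, which has its own 3′ end. The mature miR-9-5p and its match in Lmna are shown because Lmna was the lowest member at E12.5, with the seed (bases 2 to 8) in capitals in the microRNA and the complementary letters in capitals in the target.
mmu-miR-9-5p: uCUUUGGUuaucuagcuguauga
Lmna-201, chr3:88481785-88481806, reverse strand: gtatctgccttaaaACCAAAGg

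This match lies 282 bases after the stop codon of the GENCODE M21 transcript Lmna-201, the longest coding transcript of the gene (12 exons, the form of lamin A). Among the 8 genes it was found in 1, Lmna, and among 20982 genes with an annotated 3′ untranslated region in 12.8%. The microRNA itself was not measured in these libraries. In the same annotation Lmna spans chr3:88480147-88509956, Lbr chr1:181815335-181843046, Tmpo chr10:91147571-91181315, Lmnb2 chr10:80901203-80918245 and Sun2 chr15:79724070-79742536, all on the reverse strand, while Emd (chrX:74254687-74261548) and Sun1 (chr5:139200637-139249840) lie on the forward strand.

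The members differed widely in level at the first stage. At E12.5 Lmnb1 had 407 ± 1.23 TPM (SD, n = 2) and lay above 95.0% of the listed genes, followed by Tmpo (224 ± 6.85 TPM), Emd (126 ± 5.84 TPM), Lbr (67.8 ± 0.80 TPM), Lmnb2 (47.6 ± 0.59 TPM), Sun2 (36.3 ± 1.76 TPM) and Sun1 (29.2 ± 2.08 TPM). Lmna was at 3.48 ± 0.01 TPM, above 3.9% of the listed genes. No library ranges of neighbours in this order overlapped. At P0 Lmnb1 was still highest at 105 ± 6.71 TPM, Emd (66.3 ± 3.09 TPM) lay above Tmpo (34.7 ± 2.21 TPM), then came Lmnb2 (24.5 ± 0.14 TPM), Sun2 (23.6 ± 0.83 TPM) and Sun1 (17.1 ± 1.99 TPM), and Lbr (9.09 ± 0.86 TPM) and Lmna (9.0 ± 0.43 TPM) overlapped. The 8 genes together held 941 ± 5.43 TPM at E12.5, then 732 ± 16.5 (E14), 508 ± 1.36 (E15.5), 424 ± 56.3 (E17) and 289 ± 1.58 (P0).

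**Figure D1:**
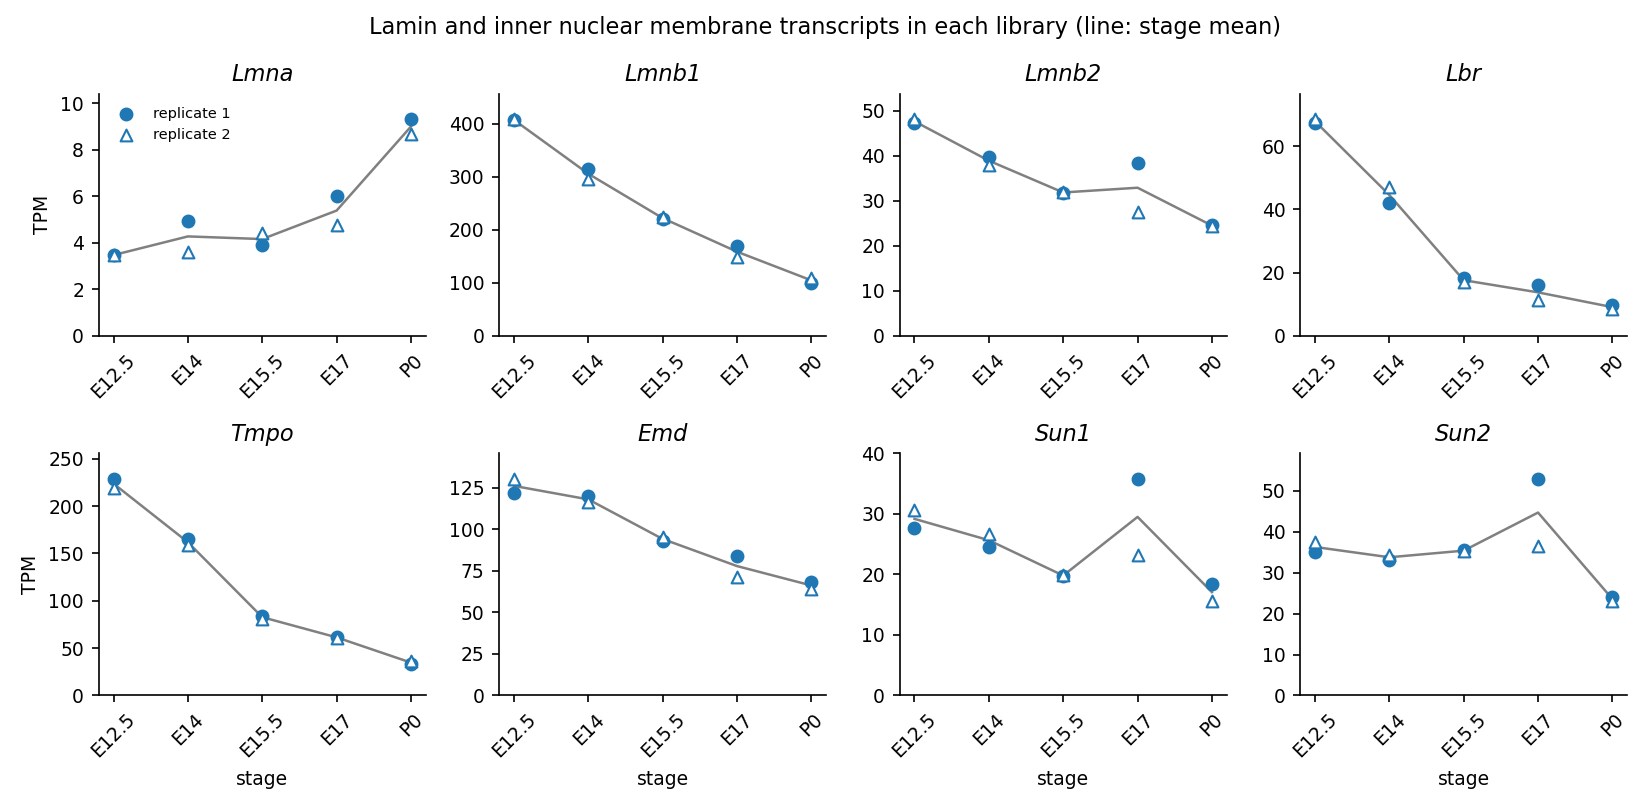
TPM (y axis, linear from 0, a separate scale per gene) of each of the 8 genes in each of the 10 libraries, by stage (x axis); circles are replicate 1, triangles replicate 2 and lines join stage means. Lmnb1 fell from 407 to 105 TPM and Lmna rose from 3.48 to 9.0 TPM, and the E17 replicates lie apart for Lmnb2, Sun1 and Sun2.

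The first comparison asked which of these genes changed between E12.5 and P0. Of the 8 members, 7 were lower and 1, Lmna, was higher at P0, and each passed limma's moderated test (log2(TPM + 1), Benjamini-Hochberg adjusted p under 0.05 over 6048 genes). Of all genes tested, 78.2% passed the same threshold, 51.0% lower and 27.1% higher, so that a call by itself does not set the members apart. The median change of the members was -0.93 on the log2 scale, against -0.27 over all genes. Median-of-ratios scaling, which brings the median of all genes to -0.01, turned the 1641 higher and 3087 lower genes into 2292 and 2281, and the 7 falling members kept their call with values from -2.51 (Lbr) to -0.33 (Sun2). For 8 of 8 members the P0 libraries lay wholly above or below the E12.5 libraries, as they did for 90.9% of all genes. Over the 5 stages, 8 of 8 members and 82.9% of all genes passed limma's F test.

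Lmnb1, the most abundant lamin, fell at every step. Its TPM in replicates 1 and 2 were 406 and 408 at E12.5, then 315 and 296 (E14), 220.4 and 223 (E15.5), 169 and 148 (E17) and 99.8 and 109 (P0). No library of one stage overlapped those of the next. From E12.5 to P0 the change was -1.95 on the log2(TPM + 1) scale (standard error, SE, 0.08, adjusted p 1.41e-09 in limma), and P0 had 0.257 of the E12.5 level. The 4 steps were of similar size, at -0.41, -0.46, -0.48 and -0.59 (SE 0.08 each, limma adjusted p between 0.000292 and 0.0124). The first step lost its call when a library of either stage was left out, with limma adjusted p of 0.114 when either E12.5 library was missing, and of 0.0727 and 0.129 when E14 replicate 1 or 2 was, while its size stayed between -0.46 and -0.37. With only the 4 libraries of E15.5 and E17 in the fit, the step between these stages was not called (0.0645).

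Lmnb2, the other B-type lamin, fell less. Its TPM in replicates 1 and 2 were 47.2 and 48.0 at E12.5, then 39.8 and 38.0 (E14), 31.7 and 31.99 (E15.5), 38.4 and 27.4 (E17) and 24.6 and 24.4 (P0). The stages before E17 and P0 were tight, whereas the E17 libraries lay on both sides of the E15.5 libraries. The change from E12.5 to P0 was -0.93 (SE 0.13, limma adjusted p 3.77e-05). Of its single steps, that from E17 to P0 was called (-0.39, SE 0.13, limma adjusted p 0.031), and it was -0.63 (1.16e-05) without E17 replicate 2, -0.16 (0.16) without E17 replicate 1 and uncalled without any 1 library except E17 replicate 2, with array weights (0.112) or in a fit of the 4 libraries alone (0.151). The steps from E12.5 to E14 (-0.29, limma adjusted p 0.197) and E14 to E15.5 (-0.28, 0.0893) were not called on all libraries, but both were called without E17 replicate 1 (0.00641 and 0.00229), E17 replicate 2 (0.00629 and 0.00223) or both E17 libraries (0.00639 and 0.00227), with array weights (0.000959 and 0.000116) and in fits of 4 libraries (0.000488 and 0.000247). Between E15.5 and E17 the difference was 0.03 (limma adjusted p 0.9), and leaving out E17 replicate 1 gave -0.21 (0.0792) and leaving out E17 replicate 2 gave 0.26 (0.0179).

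Lmna, the A-type lamin gene, went the other way and from a low level. Its TPM in replicates 1 and 2 were 3.48 and 3.47 at E12.5, then 4.94 and 3.62 (E14), 3.90 and 4.43 (E15.5), 6.03 and 4.75 (E17) and 9.30 and 8.70 (P0). The E14 and E15.5 libraries overlapped, and both P0 libraries lay above all others. The rise from E12.5 to P0 was 1.16 on the log2(TPM + 1) scale (SE 0.14, limma adjusted p 1.57e-05), which understates it at this level, since the TPM ratio was 2.59. With a pseudocount of 10 TPM the value was 0.50 (limma adjusted p between 1.1e-12 and 0.000726 over 23 alternatives). The step from E17 to P0 was called (0.65, SE 0.14, limma adjusted p 0.00475), and those from E12.5 to E14 (0.23, adjusted p 0.365), E14 to E15.5 (-0.02, 0.908) and E15.5 to E17 (0.30, 0.149) were not. Leaving out E17 replicate 1 brought the last of these to 0.16 (limma adjusted p 0.407), and leaving out E17 replicate 2 to 0.45 (0.0113). The call from E17 to P0 was lost with array weights (limma adjusted p 0.0647). The sign between E14 and E15.5 turned to 0.35 under quantile normalization (limma adjusted p 0.0308), to 0.08 under median-of-ratios scaling, to 0.16 without E14 replicate 1 and to 0.05 without E15.5 replicate 1. Meningeal and fibroblast markers, which come from cells known to be rich in A-type lamins, were lower in sum from E15.5 on, 6 of 6 of them being in the table and none at 0 in any library (Col1a1 had 18.9 and 22.3 TPM at E12.5 against 0.51 and 0.40 at P0). Neuronal markers, 5 of 7 of which were in the table and none at 0, were higher in sum at P0. The part of either cell type in the Lmna values was not tested.

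The make-up of the lamin transcripts moved with these changes. All 3 lamin genes together held 458 ± 1.81 TPM in E12.5 and 138 ± 6.14 TPM in P0 libraries (SD, n = 2). Lmna made up 0.76% ± 0.01 of lamin TPM at E12.5, then 1.22% ± 0.21 (E14), 1.61% ± 0.13 (E15.5), 2.73% ± 0.13 (E17) and 6.53% ± 0.60 (P0). Over the same stages the share of Lmnb1 went from 88.8% ± 0.08 to 75.7% ± 1.49 and that of Lmnb2 from 10.4% ± 0.09 to 17.8% ± 0.89. Lmnb1 was the main lamin transcript by TPM at each of the 5 stages. These shares depend on the gene lengths used, which are not given.

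Among the membrane proteins, Lbr and Tmpo fell furthest. The TPM of Lbr in replicates 1 and 2 were 67.3 and 68.4 at E12.5, then 42.0 and 47.1 (E14), 18.3 and 16.96 (E15.5), 16.0 and 11.5 (E17) and 9.70 and 8.49 (P0). No library overlapped those of the stage before it, and the E15.5 and E17 libraries came closest. At P0 Lbr had changed since E12.5 by -2.77 (SE 0.14, limma adjusted p 5.62e-09), and P0 had 0.134 of the E12.5 level. The step from E14 to E15.5 was the largest of the 4 (-1.29, SE 0.14, limma adjusted p 1.65e-05), and Lbr then had 0.395 of its E14 level. The choroid plexus, meningeal and erythroid markers were also far lower at E15.5 than at E14. Their part in the fall of Lbr, or of other members at this step, was not tested. The step from E12.5 to E14 (-0.60, limma adjusted p 0.0229) was no longer called without E12.5 replicate 1 (0.152) or 2 (0.179), or E14 replicate 1 (0.2) or 2 (0.1). From E15.5 to E17 the difference of -0.35 was not called (limma adjusted p 0.0871) but became -0.57 (0.000715) when E17 replicate 1 was left out and -0.13 (0.319) when E17 replicate 2 was. The step from E17 to P0 (-0.53, 0.0108) was -0.31 (0.0253) without E17 replicate 1, and it was not called without P0 replicate 2 (-0.45, 0.0791), under quantile normalization (-0.25, 0.0728), with array weights (0.0517) or in a fit of the 4 libraries alone (0.0763). The step before it was called under quantile normalization (-0.43, 0.01) and median-of-ratios scaling (-0.36, 0.0339).

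Tmpo, the LAP2 gene, had the smallest errors of the set. Its TPM in replicates 1 and 2 were 229 and 219 at E12.5, then 165 and 159 (E14), 84.3 and 81.1 (E15.5), 61.7 and 61.1 (E17) and 33.2 and 36.3 (P0). Each stage lay wholly below the stage before it. The change from E12.5 to P0 was -2.65 (SE 0.08, limma adjusted p 7e-11), and P0 had 0.155 of the E12.5 level. All 4 steps were called, with the largest from E14 to E15.5 (-0.96, limma adjusted p 1.61e-06), then E17 to P0 (-0.81, 2.33e-05), E12.5 to E14 (-0.46, 0.0049) and E15.5 to E17 (-0.42, 0.00283). The first of these steps in time was uncalled without E12.5 replicate 1 (limma adjusted p 0.0818) or E14 replicate 2 (0.0696), and that from E15.5 to E17 in a fit of the 4 libraries alone (0.0653). The choroid plexus, meningeal and erythroid markers also fell from E14 to E15.5, and their part in the Tmpo values was not tested. The gene encodes several LAP2 forms, some of which lack the membrane anchor, and they are summed here.

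Emd, the emerin gene, fell by a smaller amount. Its TPM in replicates 1 and 2 were 122 and 130.4 at E12.5, then 120.0 and 116 (E14), 92.8 and 95.7 (E15.5), 84.3 and 71.6 (E17) and 68.4 and 64.1 (P0). No library overlapped those of the stage before it, but E12.5 and E14 were close. The change from E12.5 to P0 was -0.92 (SE 0.09, limma adjusted p 1.69e-06), and P0 had 0.525 of the E12.5 level. Between E12.5 and E14 the difference was not called (-0.10, limma adjusted p 0.551). The steps from E14 to E15.5 (-0.32, limma adjusted p 0.0101) and from E15.5 to E17 (-0.28, 0.0422) were called. The first of these was lost without E14 replicate 1 (0.0697) or E15.5 replicate 1 (0.0727), and the second in 12 of 22 alternatives, where adjusted p reached 0.221. These included leaving out either E12.5 library, either E14 library, either E15.5 library or E17 replicate 2 (-0.16, 0.113). From E17 to P0 the difference of -0.23 was not called (limma adjusted p 0.059), with -0.11 (0.29) without E17 replicate 1 and -0.34 (0.00175) without E17 replicate 2. Emd overlaps an annotated pseudogene, Gm14686, on the same strand, and Lbr overlaps an annotated rRNA gene, Gm26004, on the same strand. The sources used here do not say how reads in these overlaps were assigned. Lbr, Tmpo, Sun1 and Sun2 each overlap an annotated gene on the opposite strand, and whether the counting used strand is not stated in those sources.

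The LINC complex genes Sun1 and Sun2 were lowest at P0, and at E17 their replicates lay far apart. Sun1 had, in replicates 1 and 2, 27.7 and 30.6 TPM at E12.5, then 24.6 and 26.7 (E14), 19.7 and 19.9 (E15.5), 35.7 and 23.2 (E17) and 18.5 and 15.7 (P0). Sun2 had 35.1 and 37.6 TPM at E12.5, then 33.1 and 34.5 (E14), 35.5 and 35.3 (E15.5), 52.9 and 36.5 (E17) and 24.2 and 23.0 (P0). In both genes E17 replicate 1 was the highest of the 10 libraries. The other members, and the median over all genes, were also higher in this library than in E17 replicate 2. From E12.5 to P0 the change was -0.74 for Sun1 (SE 0.17, limma adjusted p 0.00148) and -0.60 for Sun2 (SE 0.14, 0.00195), and from E17 to P0 it was -0.73 (0.00545) and -0.87 (0.000722). Scaling moved the first pair of values to -0.42 (0.00898) and -0.31 (0.0162) under quantile normalization and to -0.48 (0.00717) and -0.33 (0.0161) under median-of-ratios scaling. The last step of Sun1 was -0.62 (0.0557) without P0 replicate 2, -0.43 (0.00503) without E17 replicate 1 and -1.03 (6.97e-07) without E17 replicate 2. Sun1 was called higher at E17 than at E15.5 (0.52, SE 0.17, limma adjusted p 0.0398), but the call was lost without any 1 library other than E17 replicate 2, with no filter on low values (0.0672) and in a fit of 4 libraries (0.197), with a value of 0.22 (0.138) in the absence of E17 replicate 1 and 0.82 (1.51e-05) in that of E17 replicate 2. Sun1 was lower at E15.5 than at E14 by a value of -0.36 that was not called (limma adjusted p 0.0928). It was called without E17 replicate 1 (0.00219), E17 replicate 2 (0.00214) or both (0.00223), with array weights (2.87e-05) and in a fit of the 4 libraries alone (5.36e-05). For Sun2 the differences before E17 were -0.10 and 0.07 (limma adjusted p 0.703 and 0.713), and that from E15.5 to E17 was 0.31 (0.131), with 0.04 (0.75) without E17 replicate 1 and 0.57 (7.88e-05) without E17 replicate 2.

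**Figure D2:**
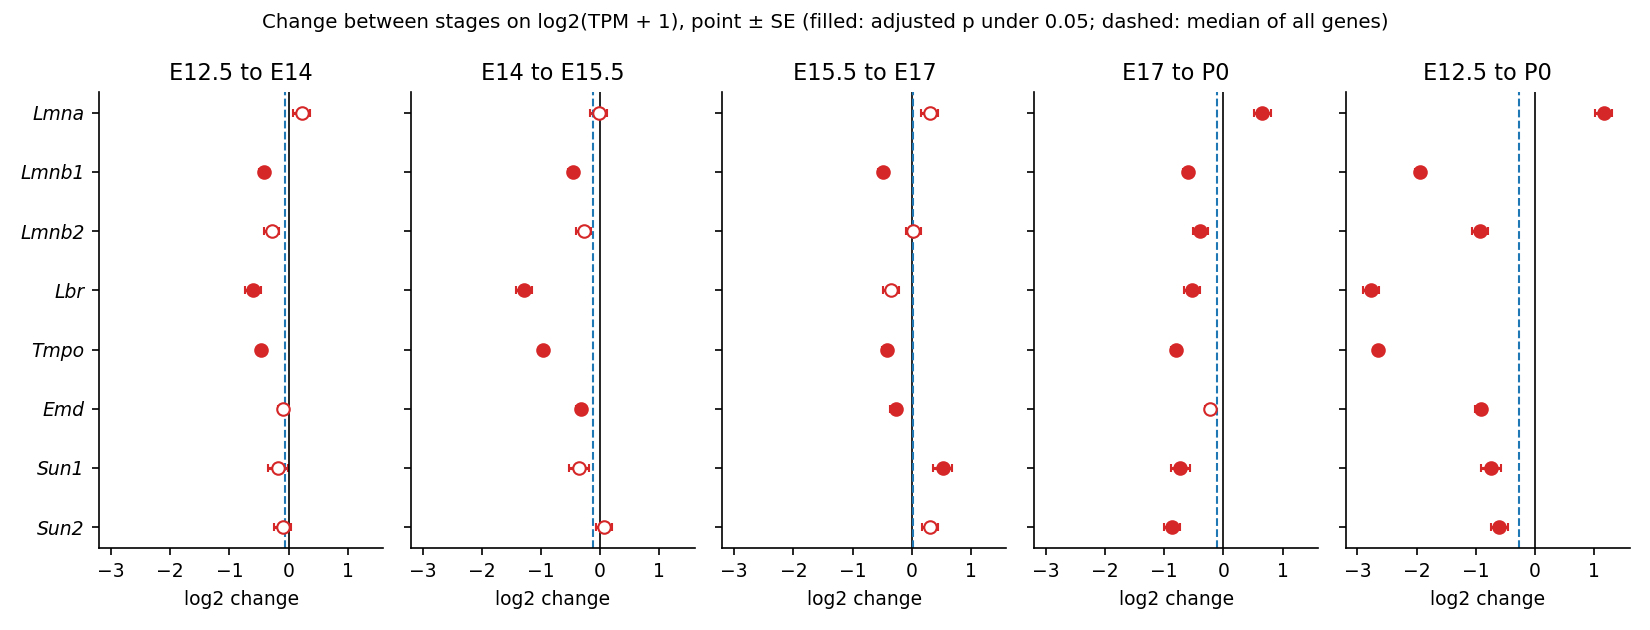
Change of each gene (rows) on log2(TPM + 1) in the 4 steps between neighbouring stages and from E12.5 to P0 (x axis, log2 scale); points are limma estimates from 2 libraries per stage, bars are ± SE, filled points have an adjusted p under 0.05 and the dashed line is the median of all 6048 genes. From E12.5 to P0, 7 genes lie left of the dashed line at -0.27 and Lmna lies at 1.16.

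Counted by step, 3 of 8 members were called from E12.5 to E14 (8.73% of all genes), 4 in the next step (51.7%), 4 between E15.5 and E17 (25.0%) and 7 in the last step (41.7%). The members called at the first step were Lmnb1, Lbr and Tmpo, and all 3 were lower (4.78% of all genes were called lower there and 3.95% higher). At the second they were these 3 and Emd, all lower, against 33.3% of all genes lower and 18.4% higher. Between E15.5 and E17 Lmnb1, Tmpo and Emd were lower (10.6% of all genes) and Sun1 higher (14.4%). In the last step each member except Emd was called, Lmna higher (12.9% of all genes) and 6 lower (28.8%). Libraries of neighbouring stages did not overlap for 8 members at the first step (70.0% of all genes), 7 at the second (87.8%), 7 at the third (60.4%) and 8 at the last (61.9%). The first count was 0 without E12.5 replicate 1 or E14 replicate 2 and 1 without E12.5 replicate 2 or E14 replicate 1. The third was 2 without any 1 library of E12.5, E14 or E15.5, and the last was 4 without P0 replicate 2 or with array weights. In a fit of the 4 libraries alone the third was 0. Over the whole period the count stayed at 8 without any 1 library and without both E17 libraries.

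Because TPM are shares, the members were also set against one another within each library, as the log2 ratio of TPM + 1. Lmnb1 against Lmna was 6.50 and 6.52 at E12.5, then 5.73 and 6.01 (E14), 5.50 and 5.37 (E15.5), 4.60 and 4.70 (E17) and 3.29 and 3.51 (P0). Lbr against Lmna was 3.93 and 3.96 at E12.5, then 2.85 and 3.38 (E14), 1.98 and 1.73 (E15.5), 1.28 and 1.121 (E17) and 0.05 and -0.03 (P0). Each stage lay below the one before it in both ratios. The F statistic over stages was compared with its value in each of the 945 possible sets of 5 library pairs, and this exact permutation test gave p = 0.00106 for each (0.00212 adjusted over 4 ratios), the smallest p it allows. The differences between P0 and E12.5 were -3.11 and -3.93. Ratios of other genes were not tested, and 82.9% of all genes passed limma's F test over the 5 stages. A call therefore does not by itself set these ratios apart. Both ratios are made of genes already called in these libraries, so they are not separate evidence.

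The 2 B-type lamins drew nearer to each other. Lmnb2 against Lmnb1 was -3.07 ± 0.01 at E12.5 (SD, n = 2), then -2.94 ± 0.02 (E14), -2.76 ± 0.003 (E15.5), -2.25 ± 0.20 (E17) and -2.05 ± 0.10 (P0), where E17 and P0 overlapped (exact permutation test p = 0.00212, adjusted 0.00282). For the SUN genes, Sun2 against Sun1 was 0.31 ± 0.03 at E12.5, then 0.39 ± 0.04 (E14), 0.81 ± 0.01 (E15.5), 0.59 ± 0.06 (E17) and 0.45 ± 0.11 (P0) (exact permutation test p = 0.00529, adjusted 0.00529). This ratio was highest in the E15.5 libraries and lower again later, with P0 overlapping E14. E17 replicate 1, where both SUN genes were highest, had a ratio of 0.55, close to 0.63 in replicate 2. The difference of Sun2 against Sun1 between P0 and E12.5 was 0.14, or 0.22 without P0 replicate 1 and 0.06 without P0 replicate 2.

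**Figure D3:**
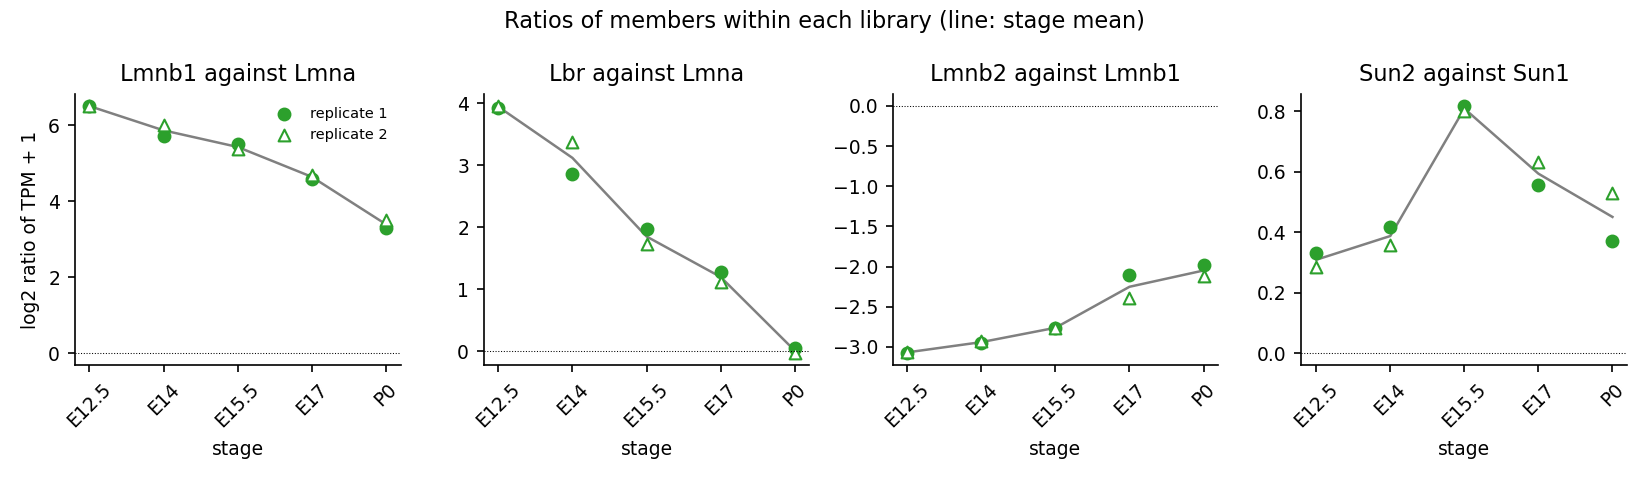
Log2 ratio of TPM + 1 (y axis, its own scale per panel) of 4 pairs of members in each of the 10 libraries, by stage (x axis); circles are replicate 1, triangles replicate 2 and lines join stage means. Lmnb1 and Lbr fell against Lmna at every stage, from 6.51 to 3.40 and from 3.94 to 0.01, and Sun2 against Sun1 was highest at E15.5 (0.81).

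Pairs of members were also compared in their course over the 10 libraries. On log2(TPM + 1), Pearson's r was between 0.921 and 0.991 for each pair among Lmnb1, Lmnb2, Lbr, Tmpo and Emd, 0.842 for Sun1 with Sun2, 0.811 for Lmnb2 with Sun1, 0.607 for Lmnb2 with Sun2, between 0.343 and 0.627 for either SUN gene with Lmnb1, Lbr, Tmpo or Emd, and between -0.884 and -0.524 for Lmna with each other member. The libraries share stage, so these values describe a common course over 5 stages and carry no test. By the same measure, among 5434 other genes averaging 10 TPM or more, those most like Tmpo were the mitotic motor genes Kif15 (0.999) and Kif11 (0.998) and the condensin subunit gene Ncapg (0.998). Lbr was most like Topbp1, Hmga2 and Fgfr3 (0.997 each), and Lmnb1 was most like G3bp1, Uba2 and Uhrf1 (0.997 each). For Lmna the nearest were Syn2, a synapsin gene (0.98), Ndufs7 (0.979) and Tpgs1 (0.979), and for Emd they were Irf3 (0.996), Mapkapk2 (0.995) and Rcc2 (0.994). Lmnb2 was most like Cog2 (0.992), Pknox1 (0.99) and Rpap1 (0.989). For Sun1 they were Gpr107 (0.983), Fads1 (0.98) and Tspan18 (0.978), and for Sun2 Islr2 (0.977), Paqr3 (0.971) and Plxna2 (0.968). Pearson's r does not weigh the size of a change, and genes named as alike could differ in it. From E12.5 to P0 Tmpo went from 224 to 34.7 TPM in stage means and Kif15 from 25.4 to 1.245 TPM. Lbr went from 67.8 to 9.09 TPM, Hmga2 from 234 to 0.608 TPM and Topbp1 from 58.5 to 11.9 TPM.

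The 9 of 10 proliferation markers in the table summed to 1282 to 1336 TPM at E12.5, then 905 to 947 (E14), 423 to 431 (E15.5), 249 to 289 (E17) and 153 (P0, both libraries), an 8.54-fold lower mean at the last stage. Each of these markers was lower at P0, by different amounts. The sum at P0 lay mostly on Pcna and Mcm7, which fell least. Pcna had 330 and 332 TPM at E12.5 against 64.8 and 64.7 at P0, and Mcm7 147 and 162 against 45.1 and 43.8. Ccnb1 had 178 and 181 TPM against 7.71 and 7.97, and Top2a 124 and 127 against 4.62 and 6.33. Tmpo and Lbr had 0.155 and 0.134 of their first level at P0 and Lmnb1 had 0.257, whereas Emd and Lmnb2 had 0.525 and 0.514. The part of a smaller share of dividing cells in these values was not tested.

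Other genes of the nuclear envelope were counted from lists chosen by function, with earlier results of these data known. Of the 46 listed genes, 28 were in the table and tested. Between E12.5 and P0, 16 of the 28 were called lower, 5 higher and 7 not called, with a median change of -0.57, where 51.0% of all genes were called lower, 27.1% higher and 78.2% in all, with a median of -0.27. The counts of the single lists below stand against the same shares. Under median-of-ratios scaling the counts were 14 lower and 8 higher, with a median of -0.31. Of all 6046 genes tested under it, 2281 were called lower and 2292 higher, with a median of -0.01. The genes that lost a call under this scaling were Lemd3 (-0.18, limma adjusted p 0.107) and Ist1 (-0.03, 0.712), and those that gained one, as higher, were Lemd2 (0.51, 0.00112), Fnta (0.31, 0.00312) and Spast (0.32, 0.00493). Under the same scaling Lmna was at 1.39.

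Of the LINC complex and torsin genes, 4 of 11 were tested and 3 were called lower, as were 51.0% of all genes. Syne2, which encodes a nesprin that SUN proteins bind, went from 16.7 ± 1.37 TPM at E12.5 (SD, n = 2) to 2.84 ± 0.33 TPM at P0 (-2.21, SE 0.20, limma adjusted p 1.03e-06). Tor1aip1, which encodes the torsin activator LAP1, changed by -1.70 (SE 0.12, limma adjusted p 1.3e-07) and Tor1b by -0.70 (0.0031). Tor1a, like Tor1b a torsin gene, was at 42.9 ± 0.33 and 39.0 ± 4.88 TPM and was not called (-0.14, limma adjusted p 0.235). Its sign turned to 0.13 under median-of-ratios scaling and 0.11 under quantile normalization.

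Other genes of LEM-domain and inner membrane proteins had 3 of 6 called lower and 1 higher, against 51.0% and 27.1% of all genes. Ankle2 (-1.17, limma adjusted p 8.35e-07), Tmem43 (-0.83, 6.44e-05) and Lemd3 (-0.44, 0.00575) fell on TPM as deposited (Lemd3 was at 0.01 under quantile normalization), and Tmem120a rose from 27.3 ± 0.39 to 51.4 ± 6.69 TPM (0.88, SE 0.10, limma adjusted p 5.45e-06). Banf1, the chromatin bridging factor that LEM-domain proteins bind, stayed within 485 ± 22.4 and 549 ± 1.21 TPM in stage means (limma adjusted p 0.272 over the 5 stages). Between E12.5 and P0 it was at -0.02 (limma adjusted p 0.798), and at 0.25 (0.0597) under median-of-ratios scaling.

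The lamin processing enzymes differed among themselves. Zmpste24, the protease that matures prelamin A, went from 43.0 ± 1.64 to 12.4 ± 0.29 TPM (-1.71, SE 0.11, limma adjusted p 5.87e-08), over the period in which Lmna rose. The farnesyltransferase subunit genes Fnta (0.04, limma adjusted p 0.679) and Fntb (-0.25, 0.0621) were not called. Fntb was called without both E17 libraries (0.0102), and its sign turned to 0.01 under median-of-ratios scaling.

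Of the chromatin partners, 4 of 5 were called lower, against 51.0% of all genes. All 3 HP1 genes, whose proteins Lbr binds, fell, with changes of -1.40 for Cbx1 (limma adjusted p 1.37e-08), -1.19 for Cbx5 (3.28e-06) and -0.86 for Cbx3 (1.35e-06). Prr14, which tethers HP1 to the lamina, changed by -0.77 (limma adjusted p 0.000104). Hdac3, a histone deacetylase bound by LAP2 and emerin, was not called (-0.15, limma adjusted p 0.197), and its sign turned to 0.13 under median-of-ratios scaling.

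The list for disassembly and resealing of the envelope had 5 of 10 genes called lower and 4 higher, against 51.0% and 27.1% of all genes. Among the lower were the mitotic kinase gene Cdk1 (-3.78, limma adjusted p 2.77e-11) and the gene of its cyclin partner, Ccnb1 (-4.36, 2.77e-11), which are also proliferation markers, and Vrk1 (-1.75, 6.72e-09), the kinase that acts on Banf1. Genes of the ESCRT machinery, which seals the envelope but also acts on endosomes, divided. Chmp7 (0.62, limma adjusted p 6.13e-06), Chmp4b (0.48, 0.000105), Chmp2a (0.40, 0.00724) and Vps4a (0.94, 2.26e-07) rose, while Vps4b (-0.95, 4.33e-07) and Ist1 (-0.31, 0.00754) fell on TPM as deposited. Spast was not called (0.04, 0.631). Vps4a went from 71.0 ± 2.18 to 137 ± 1.54 TPM and Vps4b from 67.7 ± 2.12 to 34.5 ± 1.37 TPM, so these 2 ATPase genes were near each other at E12.5 and apart at P0.

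**Figure D4:**
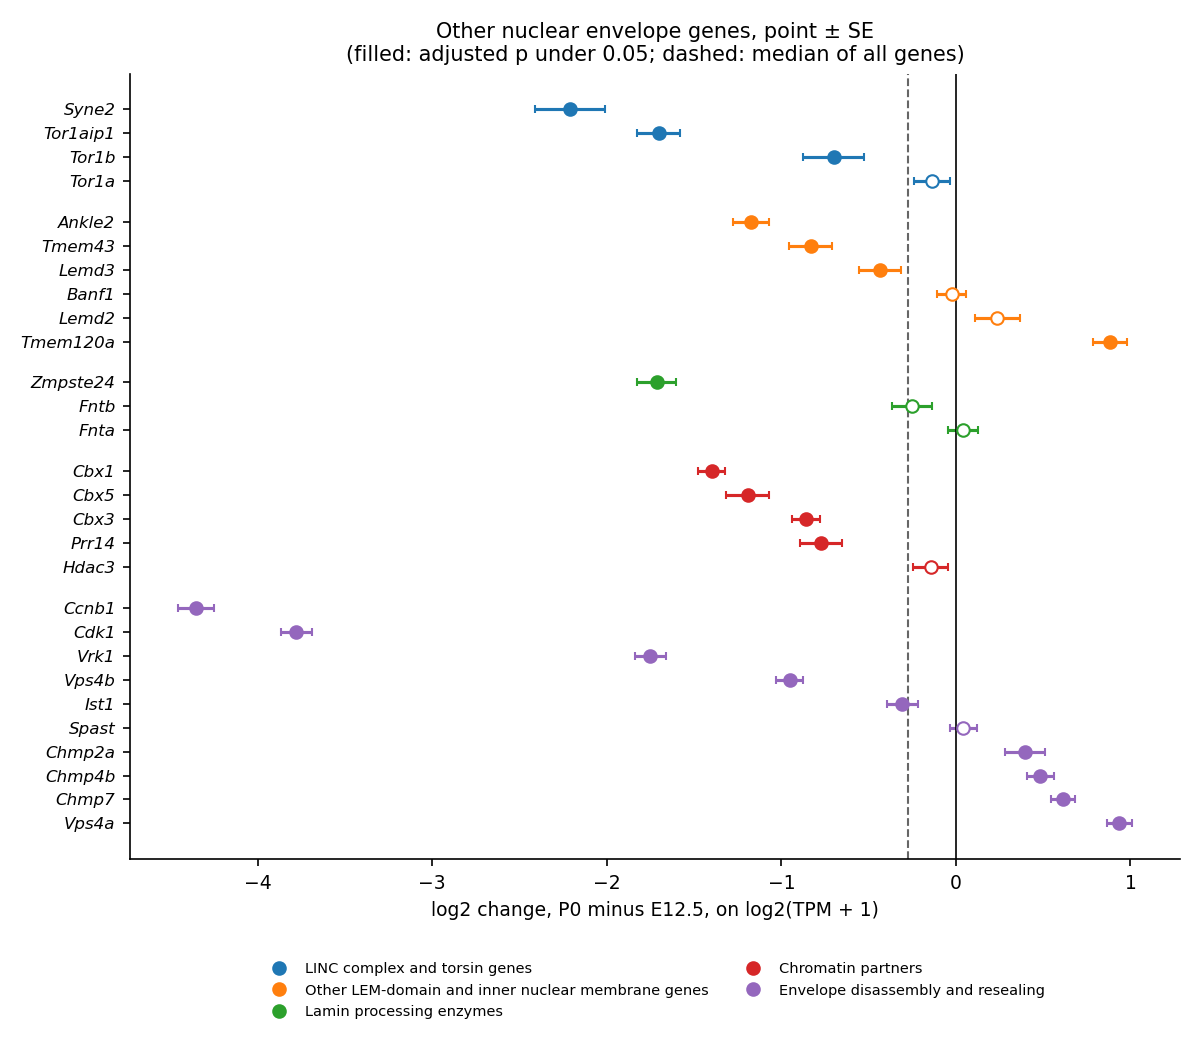
Change from E12.5 to P0 on log2(TPM + 1) (x axis, log2 scale) of the 28 tested genes of 5 nuclear envelope lists (rows, coloured by list); points are limma estimates from 2 libraries per stage, bars are ± SE, filled points have an adjusted p under 0.05 and the dashed line is the median of all genes. 16 genes were called lower, down to -4.36 for Ccnb1, and 5 higher, up to 0.94 for Vps4a.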

How the data were processed

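RNA from frozen neocortex was sequenced in 10 libraries, 2 at each of 5 stages. Per the labels' protocols, tissue was pulverised cold in detergent, the lysate was cleared by spinning, and stranded mRNA libraries were prepared, so RNA lost with the pellet was not measured. Per the file headers, the authors deposited TPM, 1 column per library. The submitters' processing notes name STAR, Subread and the build GRCm38.p5. The sources used here do not give the annotation, gene lengths or rule by which genes were listed. Stages came from the labels and replicate numbers from the titles, and 0 columns were left without a sample.

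Values were analysed as log2(TPM + 1) for the 6048 genes whose mean reached 1 TPM, which left out 99 genes and none of the 8 members. The main test was limma 3.58.1 (R 4.3.3), with 1 mean per stage over the 10 libraries, 5 residual degrees of freedom and variances that depend on the mean. Benjamini-Hochberg adjustment ran over all genes, and a call is an adjusted p under 0.05. Ratios within libraries were tested with an exact permutation test. Both tests were tried on simulated data. Members and gene lists were chosen with earlier results of these data known. Named genes were the members, the listed partners and, for each member, the 3 genes with the highest correlation. Promoters came from RefSeq (GRCm38.p6), and transcripts from GENCODE M21 on GRCm38. Figures were drawn with matplotlib 3.10.9 and tables made with pandas 2.3.3 under Python 3.11.15.

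Alternatives were other pseudocounts, filters, scalings and variance models, fits of 4 libraries, the replicate number as a block, and leaving out each library. Leaving out both E17 libraries was added after seeing the data. With 2 libraries per stage, the precision rests on the shared estimate of spread.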

Additional observations from a re-analysis of the deposited data

How the results depend on the processing

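From E12.5 to P0 the number of members called stayed at 8 under each of 23 alternatives, and that of the other envelope genes lay between 20 and 23 of 28. Of all genes, 78.2% were called on TPM as deposited. This was 4633 of 6048 genes under quantile normalization and 4573 of 6046 under median-of-ratios scaling. The counts by themselves do not set these genes apart. Shares of all genes under the other alternatives are not given here. Counts for single steps were less stable. Without 1 library, the number of members called lay between 0 and 4 from E12.5 to E14, between 3 and 6 from E14 to E15.5, between 2 and 6 from E15.5 to E17 and between 4 and 8 from E17 to P0. With only the 4 libraries of the pair in the fit it was 0 from E15.5 to E17, and with array weights it was 4 from E17 to P0. The cause was not tested.

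Under each of 17 alternatives the 4 ratios kept their call in the permutation test over stages. Ratios of other genes were not tested, so no background share stands beside these calls. The sign of P0 minus E12.5 also stayed the same. Median-of-ratios scaling and rescaling without erythroid and choroid plexus markers divide a whole library by a single factor. Such a factor cancels in a ratio apart from the pseudocount, so these alternatives could hardly move it. Differences between P0 and E12.5 had no test of their own. They lay between -3.55 and -2.36 for Lmnb1 against Lmna and between -4.24 and -2.52 for Lbr against Lmna. For Lmnb2 against Lmnb1 they lay between 0.95 and 1.24, and for Sun2 against Sun1 between 0.06 and 0.22.

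Among the members, signs turned for 2 differences, neither of them called on TPM as deposited. Lmna from E14 to E15.5 was 0.35 under quantile normalization, 0.076 under median-of-ratios scaling, 0.16 without E14 replicate 1 and 0.05 without E15.5 replicate 1, and it lay between -0.203 and 0.159 without 1 library. Lmnb2 from E15.5 to E17 was -0.026 under quantile normalization and -0.21 without E17 replicate 1, and it lay between -0.209 and 0.262 without 1 library. The cause was not tested.

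Whether a replicate number marks a shared litter or day is not stated in the sources used here. Across genes, the deviations of same-numbered libraries correlated between -0.375 and 0.107 over 10 pairs of stages, with 1 over 0.1. These values cannot exclude such a pairing. With the replicate block, 8 members were called from E12.5 to P0 and the call of Emd from E15.5 to E17 was lost (adjusted p 0.0516). The ratios had adjusted p of 0.0111, 0.0111, 0.0111 and 0.025 in the exact permutation test within replicate numbers. The depth of the libraries is unknown, which limits what can be said of Lmna, at 3.48 TPM at E12.5.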
